A study of Mus musculus with 9 samples.

Results

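The genes described here form the cell's thiol antioxidant system: glutathione synthesis and recycling, glutathione peroxidases and transferases, thioredoxin and peroxiredoxins, superoxide dismutases, catalase, and the NRF2 pathway that controls many of them. They were set by a list of 42 symbols, and a gene counted as measured where a probe set of the array carried its symbol and no other. Of the 42, 38 were measured, among 17731 genes in all, each with 1 probe set. Prdx1 and Ftl1 had a probe set shared with another symbol, and Prdx5 and Prdx6 had none in the table used here, so these 4 are not analysed here.

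RNA was hybridised to 9 Affymetrix mouse arrays, 1 per sample, in groups of 3 that all derive from C57BL6 marrow cells immortalised with HoxA9 (a homeobox transcription factor), transduced with a retroviral vector and transplanted into syngeneic mice after irradiation. IDH1mut cells carried the vector with mutant IDH1 (IDH1mut, with GFP), IDH1wt cells the vector with wild-type IDH1 (IDH1wt, with EGFP) and CTL cells the empty EGFP control vector. GFP-positive marrow cells were collected by sorting 4 weeks after transplantation. The array's Idh1 probe set (1422433_s_at) averaged 10.64 ± 0.17 in IDH1mut, 10.58 ± 0.13 in IDH1wt and 10.67 ± 0.03 in CTL (log2, SD, n = 3) and did not pass in any comparison, so the vectors do not show in it. Whether it reads the inserts was not tested. The labels do not name the mutation, the species of the insert, the age of the mice, or whether replicates came from separate mice or clones, so p-values measure only the spread between these samples, which may be technical.

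Glutathione is made by glutamate-cysteine ligase (Gclc and Gclm) and glutathione synthetase (Gss). It is oxidised as peroxidases and glutaredoxins use it, and is reduced again by glutathione reductase (Gsr) with NADPH. Transferases instead join it to electrophiles. Thioredoxin runs a parallel cycle with its own NADPH-dependent reductases and feeds the peroxiredoxins. NRF2, encoded by Nfe2l2, is kept low by KEAP1, an adaptor that hands it to a ubiquitin ligase. When oxidants or electrophiles modify KEAP1, NRF2 pairs with small MAF proteins on antioxidant response elements and raises many of these genes. Wild-type IDH1 makes NADPH in the cytosol, whereas the cancer mutants consume it.

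Promoters of 33 of the 38 members were found in RefSeq (GRCm38.p6), as windows of 250 bases before and 50 after a transcript start. Hmox1, Gclc, Gsr, Gsta4 and Gstt2 were not among them. The core of the antioxidant response element was searched on both strands in the form TGACNNNGC alone, and its matches were not set against any other motif. Forms with another letter in place of the C, and sequence outside the windows, were not searched. A gene counted here as without a match may therefore still carry the element. The form TGACNNNGC was found in 8 of the 33 members (24.2%) and in 14.0% of all 27025 genes with a window. The sequences of Nfe2l2 and Nqo1, the regulator and a classical target that both rose in IDH1mut cells, are shown from 250 bases upstream to the last base before the start, 5′ to 3′, with the match in capitals. The window of Nfe2l2 is chr2:75704664-75704913 on the minus strand, and that of Nqo1 is chr8:107403206-107403455 on the minus strand.
Nfe2l2: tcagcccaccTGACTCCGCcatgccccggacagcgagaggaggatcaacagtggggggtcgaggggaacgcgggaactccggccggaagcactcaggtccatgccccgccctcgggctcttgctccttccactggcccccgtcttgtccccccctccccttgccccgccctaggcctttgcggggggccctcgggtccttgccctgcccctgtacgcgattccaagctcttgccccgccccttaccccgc
Nqo1: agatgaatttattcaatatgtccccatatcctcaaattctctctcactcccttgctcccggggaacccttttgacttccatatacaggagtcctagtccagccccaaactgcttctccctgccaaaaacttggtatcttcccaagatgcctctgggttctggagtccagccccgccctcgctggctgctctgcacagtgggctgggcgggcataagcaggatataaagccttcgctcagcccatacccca
The Nfe2l2 match lies 240 to 232 bases before the start, on the gene's own strand. The Nqo1 window holds no match. Among the other members the core was matched in the windows of Gclm (TGACGGTGC), Gsta3 (TGACATTGC), Gstm5 (TGACCACGC), Mgst1 (TGACCGTGC), Sod1 (TGACCACGC), Srxn1 (TGACCTAGC) and 1 of those of Txnrd1 (TGACAAAGC), each written on the strand that reads TGAC. None of these 7 genes passed the test in any comparison, so 1 of the 11 members with a window that passed somewhere held a match, against 7 of the 22 that never passed. A match is a string of letters in the window and was not tested as a binding site.

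Values are log2 expression per probe set, and a difference is a difference of group means on that scale with its standard error (SE), so a difference of 1 is a 2-fold change. "Rose" and "fell" are used for genes with a limma adjusted p under 0.05 over all 17731 genes. In IDH1mut against CTL, 5 of the 38 members rose (Nfe2l2, Nqo1, Gsr, Glrx and Txnip) and 7 fell (Keap1, Gpx3, Gpx7, Gstm1, Gsto1, Gstt2 and Txn2). Over all genes 10.1% rose, 10.6% fell and 20.7% changed in that comparison, against 31.6% of the members. Of the 38 members 32 lay above the median brightness over all genes, where calls were more frequent. In a fit of those brighter genes alone 12 of the 32 changed, beside 3991 genes in all, against 3663 among all 17731 genes. The shares of 31.6% and 20.7% are therefore not matched for brightness. In IDH1wt against CTL, 0 members rose and 3 fell (Keap1, Gpx3 and Gstt2), where 1.62% of all genes rose, 0.711% fell and 2.33% changed. That count of 3 was 1 without CTL replicate 1, CTL replicate 3 or IDH1wt replicate 3 and in an unmoderated test, which uses the variance of each gene alone. In IDH1mut against IDH1wt, 2 members rose (Gsr and Glrx) and 4 fell (Gpx3, Gstm1, Gsto1 and Gstk1), where 6.54% of all genes rose, 6.78% fell and 13.3% changed. That count of 6 was 11 of 32 among genes above the median brightness and 10 with a variance trend and robust variances. Over all genes tested the counts rose too, from 2363 to 2827 among the brighter genes alone and to 2821 with the trend and robust variances. At an unadjusted p under 0.05 the members counted 16, 6 and 15 in the 3 comparisons in that order, beside 32.3%, 17% and 26.7% of all genes. The members' median difference was -0.04 in IDH1mut against CTL, -0.03 in IDH1wt against CTL and 0.01 in IDH1mut against IDH1wt, beside -0.04, -0.04 and 0.00 over all genes. The first and second comparisons share the same 3 CTL arrays.

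**Figure D1:**
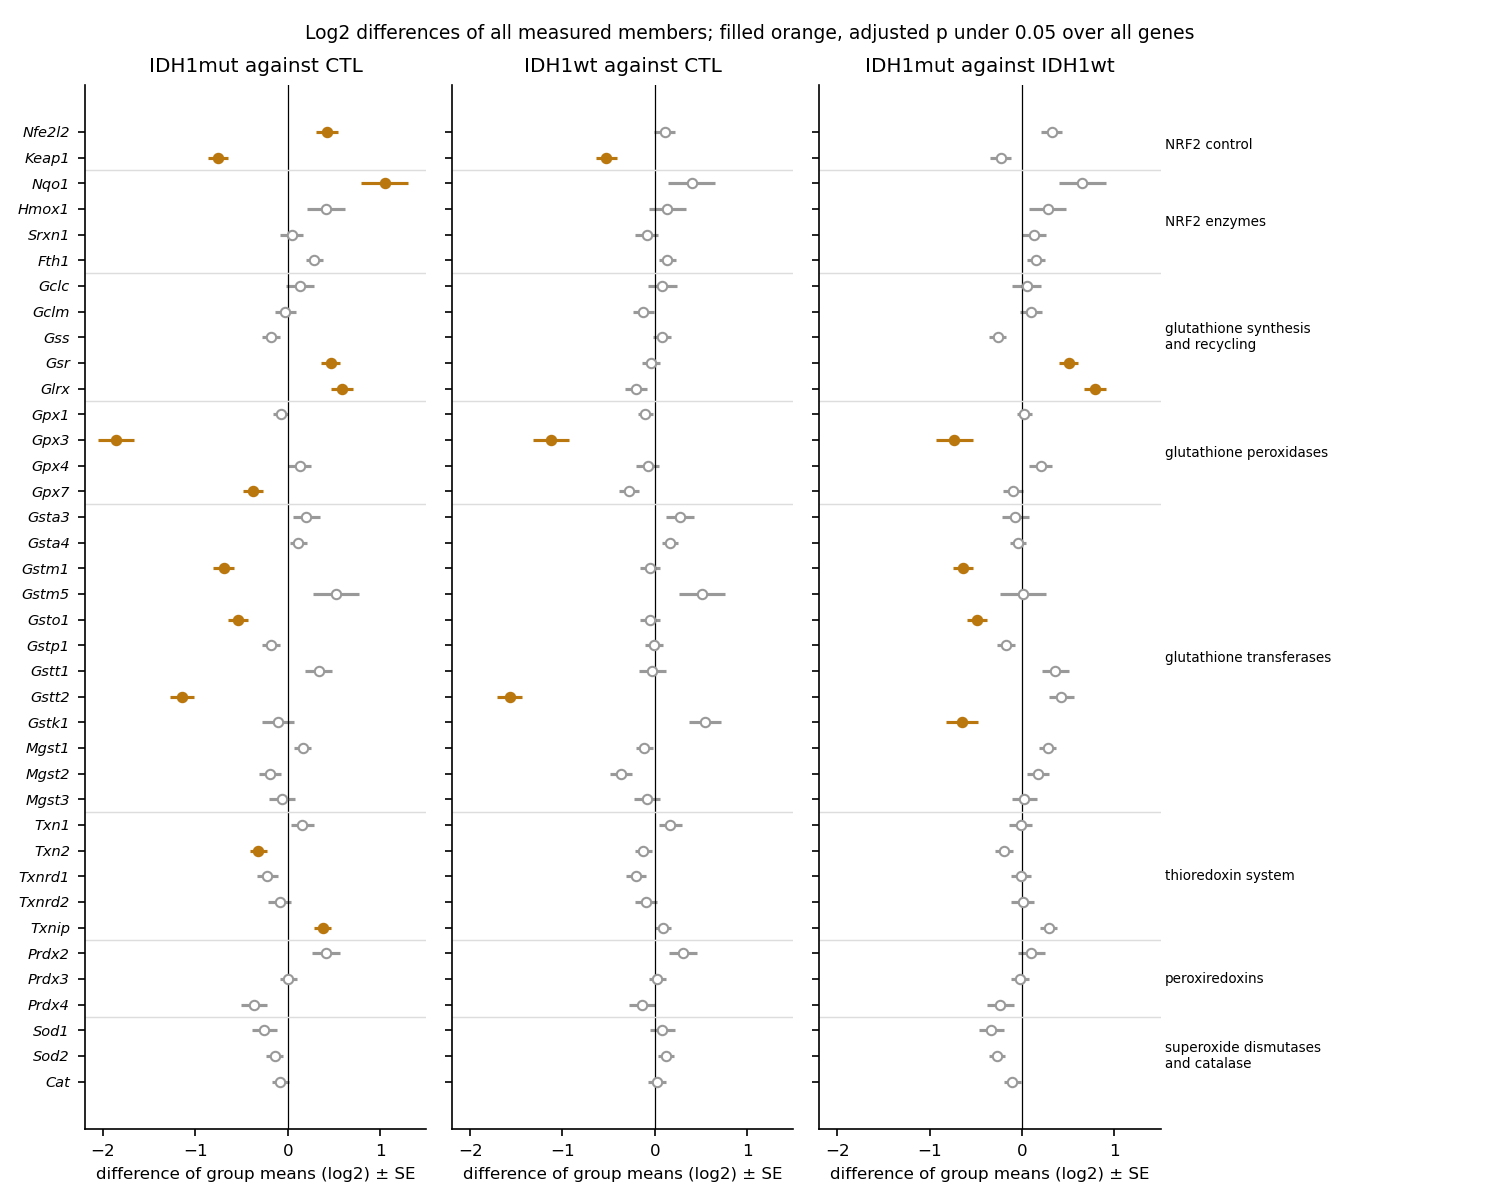
Difference of group means (log2, x axis) ± SE for each of the 38 measured members (rows, by role), for each of the 3 comparisons (IDH1mut and IDH1wt each set against CTL, then the IDH1 groups against each other). Filled orange points mark members with an adjusted p under 0.05 over all genes (12, 3 and 6 members), open grey points the others, and Gpx3 and Gstt2 lie farthest below 0 in both comparisons with CTL.

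Marker genes of several blood cell types differed between the groups of sorted cells. In IDH1mut against CTL 14 of 18 late neutrophil genes rose, 11 of 12 primary granule and promyelocyte genes fell, 18 of 21 erythroid genes rose (11 with a variance trend and robust variances, 8 in the unmoderated test), 4 of 7 monocyte genes fell, and 5 of 11 eosinophil, basophil and mast cell genes fell while 1 rose. The mean log2 level of the late neutrophil list was 11.72 to 11.79 on IDH1mut arrays, 11.15 to 11.24 on IDH1wt arrays and 11.06 to 11.19 on CTL arrays, and that of the primary granule list 10.38 to 10.50, 11.01 to 11.11 and 11.12 to 11.26 in the same order of groups. The erythroid list stood at 8.12 to 8.36 on IDH1mut arrays, 6.94 to 8.15 on IDH1wt arrays and 7.14 to 7.19 on CTL arrays. Of the stem and progenitor genes 4 of 10 rose and 1 fell, with a mean level of 6.14 to 6.56 on IDH1mut arrays and 5.87 to 5.95 on CTL arrays. Stromal and endothelial genes averaged 3.78 to 3.98 on IDH1mut arrays and 3.94 to 4.10 on CTL arrays. Of the other lists, 4 of 17 macrophage genes rose and 2 fell, 3 of 11 B cell genes and 2 of 9 T and NK cell genes rose, and 1 of 9 megakaryocyte genes rose and 1 fell. Over all genes 20.7% changed in this comparison. The B cell count was 0 with a variance trend and robust variances and in the unmoderated test. The T and NK cell count was 0 in the unmoderated test and without CTL replicate 2, IDH1mut replicate 2 or IDH1mut replicate 3. The megakaryocyte count was 4 with array weights and 1 in the unmoderated test. Between IDH1wt and CTL, where 2.33% of all genes changed, 1 of 18 late neutrophil genes and 1 of 21 erythroid genes rose. Of 17 macrophage genes 2 rose and 1 fell. Without IDH1wt replicate 1 the erythroid count was 11. In IDH1mut against IDH1wt, where 13.3% of all genes changed, 12 of 18 late neutrophil genes rose, and 9 of 12 primary granule genes fell while 1 rose. Of 21 erythroid genes 3 rose (15 without IDH1wt replicate 2, 1 without IDH1mut replicate 2). In the same comparison 5 of 7 monocyte genes and 5 of 11 eosinophil, basophil and mast cell genes fell. Without IDH1mut replicate 2 these last counts were 2 monocyte genes and 3 of the other list, and without IDH1wt replicate 3 they were 3 and 2. The monocyte count was also 3 without IDH1wt replicate 1 and 2 without IDH1mut replicate 3, and the other was 3 without IDH1wt replicate 2. The scale has no true zero, so absence of a marker cannot be read from it. In such bulk RNA fewer cells of a type and less RNA per cell cannot be told apart, and the part of cell mix in the differences below was not tested.

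**Figure D2:**
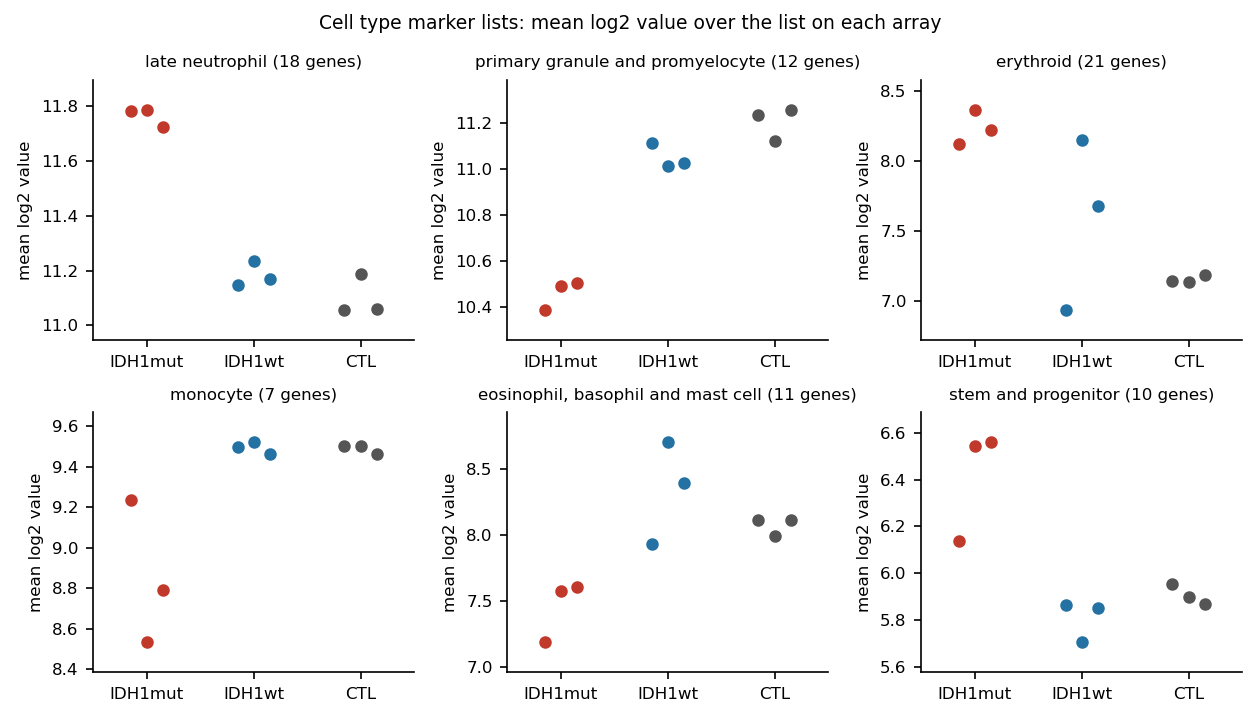
Mean log2 value (y axis) of the measured genes of 6 cell type marker lists on each array (points), for IDH1mut, IDH1wt and CTL. Late neutrophil genes are highest and primary granule genes lowest on the 3 IDH1mut arrays, while the IDH1wt arrays spread from 6.94 to 8.15 on the erythroid list.

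The regulator and its inhibitor moved in opposite directions in IDH1mut cells. The Nfe2l2 probe set (1457117_at) read 6.28, 5.97 and 6.36 on the IDH1mut arrays, 5.84, 6.05 and 5.76 on the IDH1wt arrays and 5.75, 5.75 and 5.83 on the CTL arrays. It is the gene's only probe set here, and which transcripts it reads was not tested. Every IDH1mut array lay above every CTL array, while IDH1wt replicate 2 lay above IDH1mut replicate 2. The rise of Nfe2l2 against CTL was 1.34-fold (0.42 ± 0.12, SE; adjusted p = 0.0258). It lost its call without any 1 of 5 arrays (CTL replicate 1, 2 or 3, or IDH1mut replicate 1 or 3), at adjusted p up to 0.0955, and in the unmoderated test (adjusted p = 0.0657). IDH1wt did not pass against CTL (0.10 ± 0.12; adjusted p = 0.708), and neither did IDH1mut against IDH1wt (0.32 ± 0.12; adjusted p = 0.105), although the last passed without IDH1mut replicate 2 (adjusted p = 0.0424).

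Keap1 (1450747_at) read 5.76, 5.62 and 5.45 on the IDH1mut arrays, 5.91, 5.94 and 5.66 on the IDH1wt arrays and 6.46, 6.31 and 6.32 on the CTL arrays. All 6 arrays with an IDH1 vector lay below the 3 CTL arrays. The fall was 1.69-fold in IDH1mut (-0.76 ± 0.11; adjusted p = 0.000914) and 1.44-fold in IDH1wt (-0.53 ± 0.11; adjusted p = 0.0363). The first call held without each of the 9 arrays in turn, with adjusted p up to 0.00643. The second was lost without any 1 of 6 arrays (CTL replicate 1, 2 or 3, IDH1wt replicate 2 or 3, or IDH1mut replicate 2), at up to 0.159, and in the unmoderated test (adjusted p = 0.127). The IDH1mut and IDH1wt groups did not differ past the threshold (-0.23 ± 0.11; 95% interval -0.48 to 0.02; adjusted p = 0.225).

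**Figure D3:**
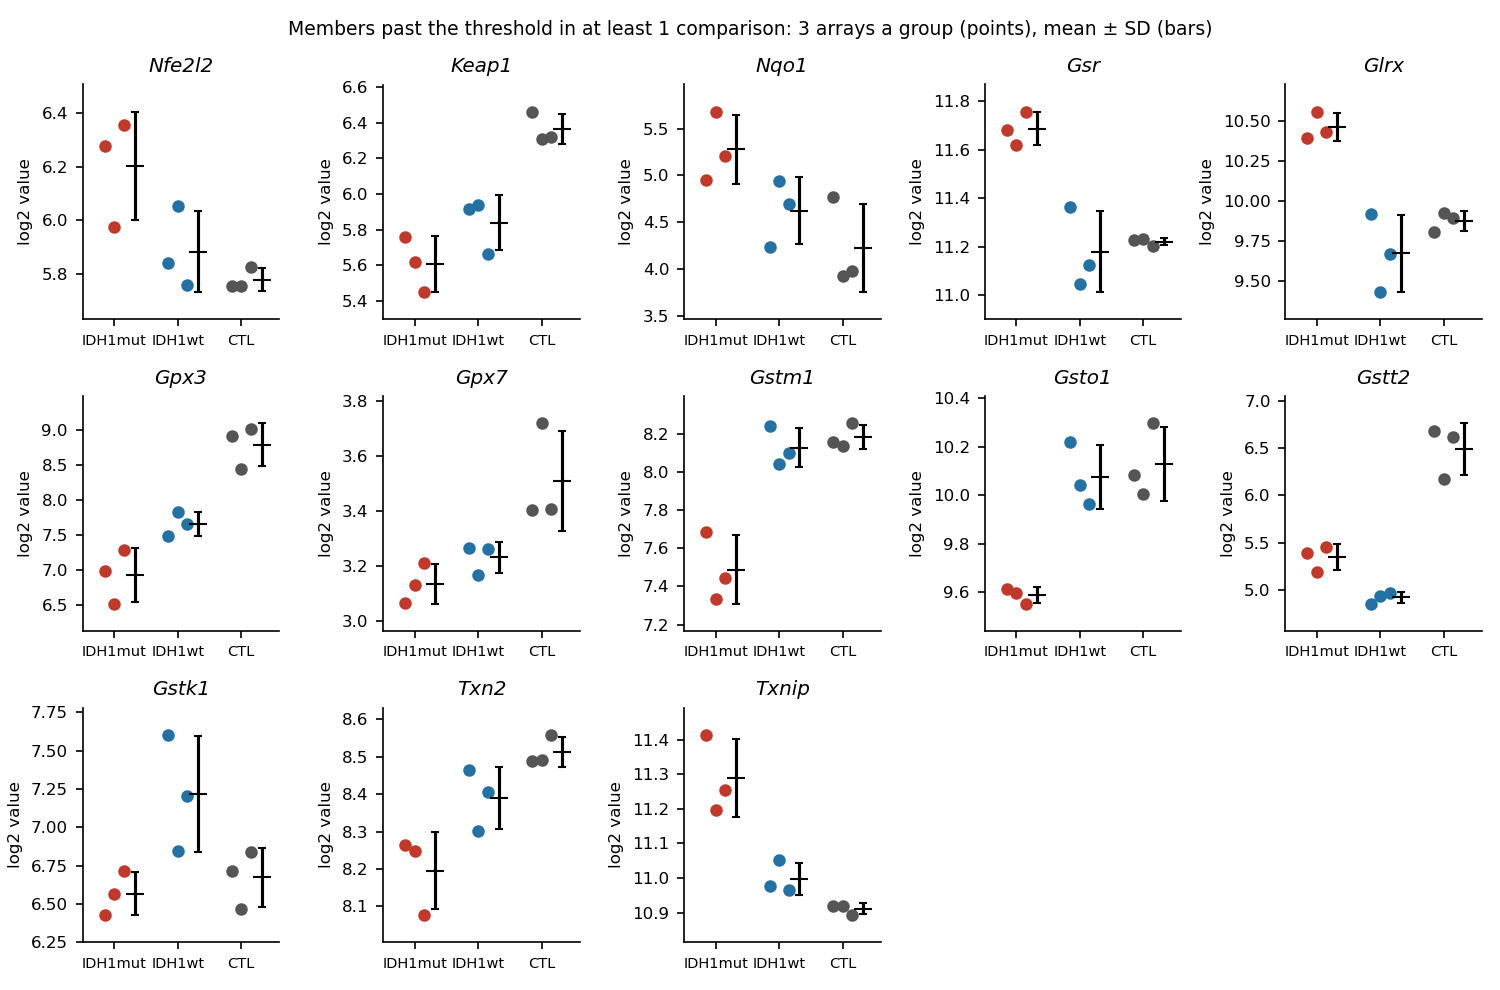
Log2 value (y axis, a scale of its own for each gene) of the 13 members that passed in at least 1 comparison, on the 3 arrays each of IDH1mut, IDH1wt and CTL (points), with mean ± SD (bars). Gsr, Glrx, Txnip and, narrowly, Nqo1 are high on the 3 IDH1mut arrays alone, and Gstm1 and Gsto1 are low on them alone. Gpx3, Gpx7, Gstt2, Keap1 and, narrowly, Txn2 are lower on all 6 arrays with an IDH1 vector than on the CTL arrays.

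Of the 4 measured enzymes and storage proteins grouped under NRF2, Nqo1 rose and Hmox1, Srxn1 and Fth1 did not pass, while the NRF2 targets Gclm and Txnrd1 are given with their own pathways. Nqo1 (1423627_at), which encodes a quinone reductase, read 4.95, 5.68 and 5.20 on the IDH1mut arrays, 4.24, 4.94 and 4.7 on the IDH1wt arrays and 4.77, 3.93 and 3.98 on the CTL arrays. The IDH1mut arrays lay above all CTL arrays, narrowly so for CTL replicate 1. The rise was 2.07-fold (1.05 ± 0.25; adjusted p = 0.0127), and its call was lost without CTL replicate 2 or CTL replicate 3 (adjusted p up to 0.0537) and in the unmoderated test (adjusted p = 0.0856). In IDH1wt against CTL the difference was 0.40 ± 0.25 (95% interval -0.16 to 0.95; adjusted p = 0.469), and in IDH1mut against IDH1wt 0.65 ± 0.25 (adjusted p = 0.12). The within-group SD of Nqo1, 0.37 in IDH1mut, 0.36 in IDH1wt and 0.47 in CTL, was among the widest of the members, whose median SD was 0.11.

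Hmox1, heme oxygenase 1, read 8.39, 7.89 and 7.46 on the IDH1mut arrays, 7.45, 7.92 and 7.52 on the IDH1wt arrays and 7.44, 7.53 and 7.53 on the CTL arrays. IDH1mut replicate 1 alone stood well above the rest, and IDH1mut replicate 3 lay within the CTL range. The difference from CTL was 0.41 ± 0.20 (adjusted p = 0.181). Without IDH1mut replicate 3 it was 0.64 and passed (adjusted p = 0.0338). Fth1, the ferritin heavy chain that stores iron, averaged 12.51 ± 0.13 (SD, n = 3) in IDH1mut, 12.36 ± 0.08 in IDH1wt and 12.22 ± 0.06 in CTL, and its difference of 0.29 ± 0.10 (SE) in IDH1mut against CTL did not pass (adjusted p = 0.056). It passed under 3 of the 9 other settings (adjusted p down to 0.0054) and without IDH1mut replicate 3. Its IDH1mut arrays all lay above the CTL arrays. Srxn1, sulfiredoxin, which repairs overoxidised peroxiredoxins, differed by 0.04 ± 0.13 in the same comparison (adjusted p = 0.859).

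Of the 5 members that make or recycle glutathione, Gsr and Glrx rose in IDH1mut against both other groups, while Gclc, Gclm and Gss did not pass in any comparison. Gsr (1421816_at) read 11.68, 11.62 and 11.76 on the IDH1mut arrays, 11.37, 11.05 and 11.13 on the IDH1wt arrays and 11.23, 11.23 and 11.20 on the CTL arrays. Glrx (1416593_at), glutaredoxin, which removes glutathione from proteins, read 10.39, 10.56 and 10.43 on the IDH1mut arrays, 9.92, 9.43 and 9.67 on the IDH1wt arrays and 9.81, 9.93 and 9.89 on the CTL arrays. For both genes the 3 IDH1mut arrays stood above all 6 others, and the IDH1wt and CTL arrays overlapped. Gsr rose 1.38-fold against CTL (0.47 ± 0.10; adjusted p = 0.0074) and 1.42-fold against IDH1wt (0.51 ± 0.10; adjusted p = 0.00772). Glrx rose 1.5-fold against CTL (0.59 ± 0.12; adjusted p = 0.00571) and 1.73-fold against IDH1wt (0.79 ± 0.12; adjusted p = 0.00199). These 4 calls held without each of the 9 arrays in turn. Glrx2, a mitochondrial glutaredoxin of the wider list of pathway genes, fell in IDH1mut against CTL (-0.57 ± 0.13; adjusted p = 0.00834), as seen after its value was known. The differences of IDH1wt from CTL were -0.04 ± 0.10 for Gsr (adjusted p = 0.876) and -0.20 ± 0.12 for Glrx (adjusted p = 0.427).

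Gclc, the catalytic subunit of glutamate-cysteine ligase, averaged 7.71 ± 0.19 (SD, n = 3) in IDH1mut, 7.65 ± 0.31 in IDH1wt and 7.57 ± 0.13 in CTL. Gclm, the modifier subunit and a common readout of NRF2, averaged 8.89 ± 0.09 in IDH1mut, 8.79 ± 0.21 in IDH1wt and 8.92 ± 0.07 in CTL. The groups overlapped for both. The 95% interval of the difference in IDH1mut against CTL was -0.21 to 0.47 for Gclc (adjusted p = 0.616). For Gclm it was -0.28 to 0.23 (adjusted p = 0.912). Gss differed by -0.18 ± 0.10 in IDH1mut against CTL (adjusted p = 0.22) and by -0.26 ± 0.10 in IDH1mut against IDH1wt (adjusted p = 0.0987), and the second of these passed among genes above the median brightness (adjusted p = 0.0381).

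Among the 4 glutathione peroxidases Gpx3 fell in all 3 comparisons and Gpx7 in 1. Gpx3 (1449106_at), the secreted plasma peroxidase, read 6.98, 6.52 and 7.29 on the IDH1mut arrays, 7.49, 7.83 and 7.66 on the IDH1wt arrays and 8.92, 8.43 and 9.01 on the CTL arrays. The groups did not overlap at all, with IDH1mut lowest and CTL highest. The fall was 3.62-fold in IDH1mut against CTL (-1.86 ± 0.20; adjusted p = 0.00012), the largest difference of any member in that comparison. It was 2.18-fold in IDH1wt against CTL (-1.13 ± 0.20; adjusted p = 0.0142) and 1.66-fold in IDH1mut against IDH1wt (-0.73 ± 0.20; adjusted p = 0.0311). Only the IDH1mut fall against CTL held without each array in turn (adjusted p up to 0.00102). The call of IDH1wt against CTL was lost without CTL replicate 1, CTL replicate 3 or IDH1wt replicate 3 (up to 0.0671), and that of IDH1mut against IDH1wt without IDH1wt replicate 2 or 3 or IDH1mut replicate 1 or 2 (up to 0.102). In the unmoderated test these calls were lost too, at adjusted p = 0.133 and 0.132.

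Gpx7 (1417836_at), a peroxidase of the endoplasmic reticulum, read 3.07, 3.13 and 3.21 on the IDH1mut arrays, 3.27, 3.17 and 3.26 on the IDH1wt arrays and 3.40, 3.72 and 3.41 on the CTL arrays. The CTL arrays were the highest, and the IDH1mut and IDH1wt arrays overlapped. These values lie near the lower end of the scale, where RMA gives no detection call. It fell in IDH1mut against CTL (-0.37 ± 0.11; adjusted p = 0.027), with a call lost without CTL replicate 2, IDH1mut replicate 1 or IDH1mut replicate 2 (adjusted p up to 0.0935). Gpx1, the main cytosolic peroxidase, averaged 12.89 ± 0.02 in IDH1mut, 12.86 ± 0.03 in IDH1wt and 12.96 ± 0.05 in CTL, and its 95% interval in IDH1mut against CTL was -0.26 to 0.11 (adjusted p = 0.587). Gpx4, which reduces lipid hydroperoxides in membranes and restrains ferroptosis, differed by 0.13 ± 0.12 (adjusted p = 0.536).

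Of the 12 glutathione transferases, enzymes that join glutathione to electrophiles, 0 rose and 4 fell in at least 1 comparison. By comparison, 3 of the 12 changed in IDH1mut against CTL (20.7% of all genes), 1 in IDH1wt against CTL (2.33%) and 3 in IDH1mut against IDH1wt (13.3%). Gstt2 (1417883_at), of the theta class, read 5.39, 5.19 and 5.45 on the IDH1mut arrays, 4.85, 4.94 and 4.97 on the IDH1wt arrays and 6.68, 6.18 and 6.62 on the CTL arrays. CTL stood apart at the top, and the IDH1wt arrays lay lower still than the IDH1mut arrays. Gstt2 fell 2.21-fold in IDH1mut against CTL (-1.15 ± 0.13; adjusted p = 0.000219) and 2.97-fold in IDH1wt against CTL (-1.57 ± 0.13; adjusted p = 0.000154), the largest difference of any member in the second comparison. Both calls held without each of the 9 arrays in turn. The difference between the IDH1 groups, 0.43 ± 0.13, did not pass (adjusted p = 0.059), but did without CTL replicate 2 (adjusted p = 0.0208) and under 4 of the 9 other settings.

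Gstm1 (1425627_x_at), of the mu class, read 7.69, 7.34 and 7.44 on the IDH1mut arrays, 8.24, 8.04 and 8.10 on the IDH1wt arrays and 8.16, 8.13 and 8.26 on the CTL arrays. Gsto1 (1456036_x_at), of the omega class, read 9.62, 9.60 and 9.55 on the IDH1mut arrays, 10.22, 10.04 and 9.96 on the IDH1wt arrays and 10.08, 10.004 and 10.30 on the CTL arrays. Both were lower on the 3 IDH1mut arrays than on any other array, with IDH1wt and CTL overlapping. Gstm1 fell 1.62-fold against CTL (-0.70 ± 0.11; adjusted p = 0.00118) and 1.56-fold against IDH1wt (-0.64 ± 0.11; adjusted p = 0.00349). Gsto1 fell 1.45-fold against CTL (-0.54 ± 0.11; adjusted p = 0.00424) and 1.40-fold against IDH1wt (-0.49 ± 0.11; adjusted p = 0.0118). All 4 calls held without each of the 9 arrays in turn. Neither passed in IDH1wt against CTL, at -0.06 ± 0.11 for Gstm1 (adjusted p = 0.844) and -0.05 ± 0.11 for Gsto1 (adjusted p = 0.846).

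Gstk1 (1452823_at), the kappa class enzyme of mitochondria and peroxisomes, was the member that differed between the IDH1 groups without passing against CTL. It read 6.43, 6.56 and 6.71 on the IDH1mut arrays, 7.60, 6.84 and 7.21 on the IDH1wt arrays and 6.71, 6.47 and 6.84 on the CTL arrays. The IDH1wt arrays were the high ones and spread widely. Gstk1 was 1.57-fold lower in IDH1mut than in IDH1wt (-0.65 ± 0.17; adjusted p = 0.0302), a call lost without IDH1wt replicate 1 or 3 or IDH1mut replicate 1 or 2 (adjusted p up to 0.0885) in the unmoderated test (0.121) and when the CTL arrays were dropped from the fit. Against CTL it differed by -0.11 ± 0.17 in IDH1mut (adjusted p = 0.735) and by 0.54 ± 0.17 in IDH1wt (adjusted p = 0.141).

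The remaining 8 transferases did not pass in any comparison. Gstm5 had the widest spread of any member in a group (SD 0.59 in CTL), because CTL replicate 2 read 7.15 while CTL replicates 1 and 3 read 8.18 and 8.17. Mgst1, a microsomal transferase, averaged 12.20 ± 0.11 (SD, n = 3) in IDH1mut, 11.92 ± 0.06 in IDH1wt and 12.04 ± 0.02 in CTL, and its 3 IDH1mut arrays lay above all others. Its difference from IDH1wt was 0.28 ± 0.09 (SE; adjusted p = 0.0691), which passed under 4 of the 9 other settings (adjusted p down to 0.0064). Gstp1, the pi class enzyme, differed by -0.18 ± 0.09 in IDH1mut against CTL (adjusted p = 0.209).

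Other theta and mu transferases were looked up after the values of Gstt2 and Gstm1 were seen. Gstt1, a member, differed in IDH1mut against CTL by 0.34 ± 0.15 (adjusted p = 0.143), whereas Gstt3 fell (-0.58 ± 0.13; adjusted p = 0.00896). Gstm4, which lies next to Gstm1 on chromosome 3 in RefSeq order, fell in IDH1mut against CTL (-0.62 ± 0.12; adjusted p = 0.00313) and against IDH1wt (-0.45 ± 0.12; adjusted p = 0.0242). The second of these calls was lost without IDH1wt replicate 1 or 3 or IDH1mut replicate 2 or 3 (adjusted p up to 0.0831), in the unmoderated test and when the CTL arrays were dropped from the fit. Gstm2, on the other side of Gstm1, read 3.66 in IDH1mut and 3.88 in CTL on average, near the lower end of the scale where a difference is hard to see, and did not pass (adjusted p = 0.182). Transferases of a class are close in sequence, and cross-hybridisation between their probe sets was not tested.

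In the thioredoxin system the inhibitor rose and the mitochondrial thioredoxin fell in IDH1mut. Txnip (1415996_at), which binds and inhibits thioredoxin and limits glucose uptake, read 11.41, 11.20 and 11.25 on the IDH1mut arrays, 10.98, 11.05 and 10.96 on the IDH1wt arrays and 10.92, 10.92 and 10.89 on the CTL arrays. The 3 IDH1mut arrays lay above all others. The rise against CTL was 1.30-fold (0.38 ± 0.09; adjusted p = 0.012) and held without each of the 9 arrays in turn (adjusted p up to 0.0443). Against IDH1wt the difference of 0.29 ± 0.09 did not pass (adjusted p = 0.0553), but did under 3 of the 9 other settings (adjusted p down to 0.00659). Txn2 (1452782_a_at) read 8.26, 8.25 and 8.08 on the IDH1mut arrays, 8.46, 8.30 and 8.41 on the IDH1wt arrays and 8.49, 8.49 and 8.56 on the CTL arrays. It fell 1.25-fold against CTL (-0.32 ± 0.09; adjusted p = 0.0314), a call lost without any 1 of 5 arrays (CTL replicate 1, 2 or 3, or IDH1mut replicate 2 or 3; adjusted p up to 0.101) and with the replicate number as a block (adjusted p = 0.0548).

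Txn1, the cytosolic thioredoxin, and its reductases did not pass in any comparison. Txn1 was read by 1 probe set (1456734_at), and which of its transcripts that probe set reads was not tested. In IDH1mut against CTL Txn1 differed by 0.16 ± 0.13 (adjusted p = 0.443), Txnrd1, the cytosolic reductase and another common NRF2 target, by -0.22 ± 0.11 (adjusted p = 0.193) and Txnrd2, the mitochondrial reductase, by -0.09 ± 0.12 (adjusted p = 0.68). The 95% interval of Txnrd1 was -0.46 to 0.02. Its probe set averaged 4.44 in IDH1mut and 4.66 in CTL, below the median of 4.94 over all genes.

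None of the 3 measured peroxiredoxins, the peroxidases that draw on thioredoxin, and none of Sod1, Sod2 and Cat passed in any comparison with limma as fitted to all 9 arrays, although at an unadjusted p under 0.05 Prdx2 and Prdx4 counted in IDH1mut against CTL and Sod1 and Sod2 in IDH1mut against IDH1wt. Prdx2, abundant in red cells, read 8.17, 8.36 and 7.95 on the IDH1mut arrays, 7.79, 8.36 and 8.02 on the IDH1wt arrays and 7.82, 7.62 and 7.80 on the CTL arrays. IDH1wt replicate 2 was as high as the top IDH1mut array and IDH1wt replicate 1 lay within the CTL range. The erythroid list read 8.12, 8.36 and 8.22 on the IDH1mut arrays, 6.94, 8.15 and 7.68 on the IDH1wt arrays and 7.15, 7.14 and 7.19 on the CTL arrays, which is the order of Prdx2 within IDH1wt but not within the other groups, and its part in Prdx2 was not tested. The difference of Prdx2 in IDH1mut against CTL was 0.41 ± 0.15 (adjusted p = 0.0769), and it passed under 4 of the 9 other settings and without IDH1wt replicate 2 (adjusted p down to 0.0353). Prdx4, the peroxiredoxin of the endoplasmic reticulum, read 9.40, 8.90 and 8.83 on the IDH1mut arrays, against 9.45, 9.41 and 9.38 on the CTL arrays. IDH1mut replicate 1 lay within the CTL range, and without it the difference of -0.37 ± 0.14 (adjusted p = 0.0916) became -0.55 and passed (adjusted p = 0.00675), as it did under 2 of the 9 other settings. Prdx3, the mitochondrial form, differed by 0.01 ± 0.09 in IDH1mut against CTL (adjusted p = 0.978), with a 95% interval of -0.20 to 0.21.

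Sod2, the mitochondrial superoxide dismutase, averaged 9.23 ± 0.10 (SD, n = 3) in IDH1mut, 9.50 ± 0.02 in IDH1wt and 9.37 ± 0.03 in CTL. Its IDH1mut arrays lay below the other 6, and the difference from IDH1wt was -0.27 ± 0.09 (SE; adjusted p = 0.0657), which passed under 4 of the 9 other settings (adjusted p down to 0.0187). Sod1, the cytosolic enzyme, differed by -0.33 ± 0.14 in the same comparison (adjusted p = 0.14), and passed without IDH1mut replicate 1 (adjusted p = 0.0416). Cat, catalase, averaged 8.93 ± 0.10 in IDH1mut, 9.03 ± 0.04 in IDH1wt and 9.01 ± 0.10 in CTL. Over the 25 members that passed nowhere, differences ran from -0.37 (Prdx4) to 0.52 (Gstm5) in IDH1mut against CTL, from -0.36 (Mgst2) to 0.51 (Gstm5) in IDH1wt against CTL and from -0.33 (Sod1) to 0.36 (Gstt1) in IDH1mut against IDH1wt.

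**Figure D4:**
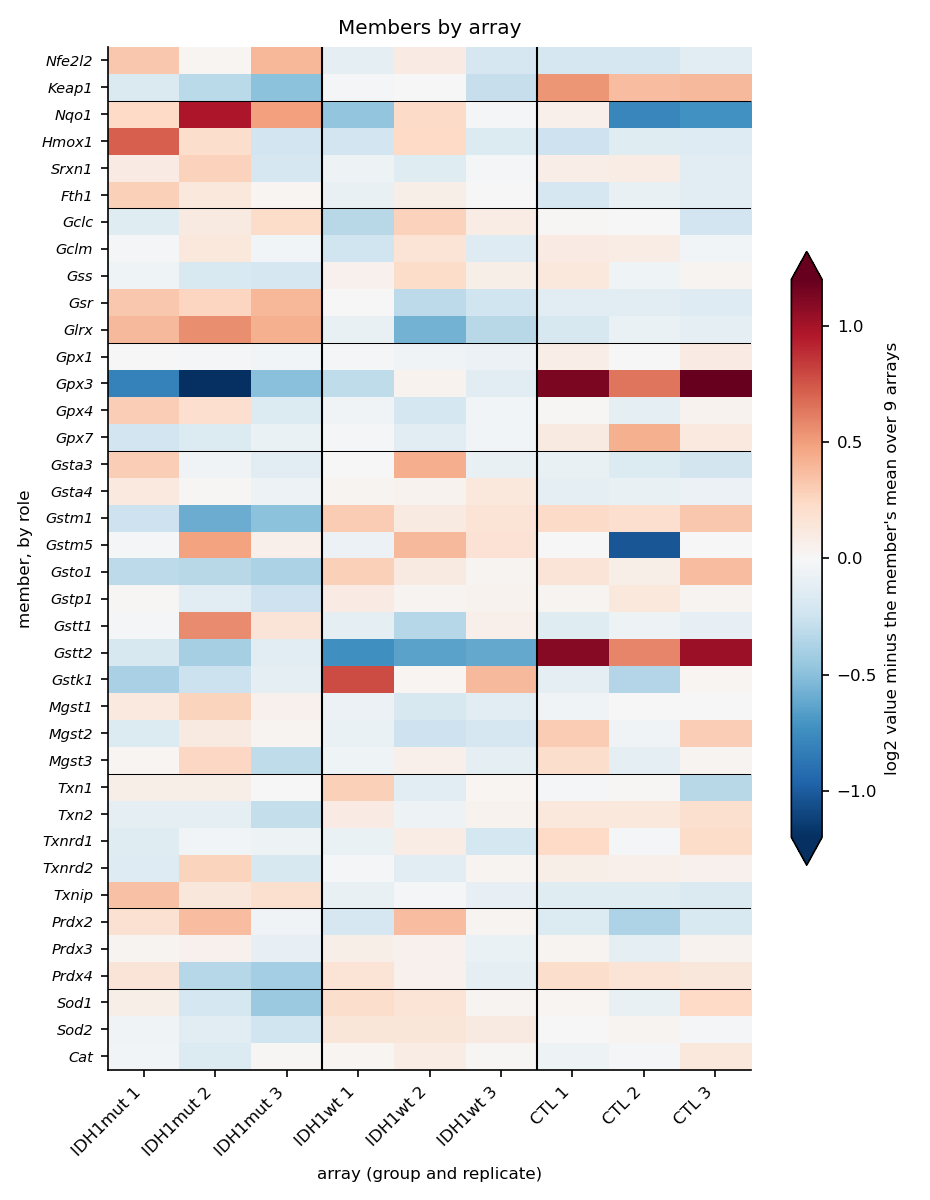
Log2 value minus the member's mean over 9 arrays (colour) for the 38 measured members (rows, by role) on each array (columns, IDH1mut, IDH1wt, CTL). Gpx3 and Gstt2 have the deepest contrast between CTL and the other arrays, Gsr, Glrx and Txnip are red on the IDH1mut arrays, and CTL replicate 2 stands out for Gstm5.

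Complete separation of the arrays, with no value of either group inside the range of the other, was seen for 20 members in IDH1mut against CTL, 10 higher and 10 lower, beside 37.8% of all genes. Between IDH1wt and CTL this held for 14 members, 5 higher and 9 lower, beside 23.6% of all genes. Between IDH1mut and IDH1wt it held for 14 members, 6 higher and 8 lower, beside 29.5% of all genes.

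A wider list of 87 other genes of these pathways had 79 measured members. In IDH1mut against CTL 15 of them rose and 14 fell (36.7%, beside 20.7% of all genes), with a median difference of -0.06. In a fit of the genes above the median brightness alone the count was 29 of 57, beside 3991 genes in all. Between IDH1wt and CTL 0 rose and 1 fell (1.27%, beside 2.33% of all genes), a count that was 3 with a variance trend and robust variances, 5 with array weights, and 2 among genes above the median brightness or without IDH1wt replicate 1. In IDH1mut against IDH1wt 11 rose and 10 fell (26.6%, beside 13.3% of all genes). Among the brighter genes alone the count there was 21 of 57, beside 2827 genes in all. The count of 21 in the last comparison was 11 without IDH1wt replicate 1 or IDH1wt replicate 3, 10 without IDH1mut replicate 2 and 13 when the CTL arrays were dropped from the fit. Known NRF2 targets of the wider list moved both ways in IDH1mut against CTL. Pir fell by 1.31 on the log2 scale (adjusted p = 0.00177), Ptgr1, prostaglandin reductase 1, by 0.86 (adjusted p = 0.000318) and Cbr3, a carbonyl reductase, by 0.74 (adjusted p = 0.00394). Among targets named after their values were seen, Slc7a11, the cystine transporter, rose by 0.52 (adjusted p = 0.00533), and the pentose phosphate genes Pgd, Taldo1 and Tkt, which serve NADPH supply, rose by 0.39 (adjusted p = 0.00808), 0.43 (adjusted p = 0.00687) and 0.44 (adjusted p = 0.0108). Those 4 calls held without each array in turn. Slc7a11 averaged 3.62 in IDH1mut and 3.10 in CTL, near the lower end of the scale, where RMA gives no detection call. Other NADPH genes of the wider list did not all rise. Idh2 averaged 8.59 ± 0.02 (SD, n = 3) in IDH1mut, 9.07 ± 0.15 in IDH1wt and 9.26 ± 0.02 in CTL. Me1 averaged 3.15 in IDH1mut and 3.26 in CTL, near the lower end of the scale where a difference is hard to see. Nnt, given below, fell. Osgin1, another target, rose by 0.54 (adjusted p = 0.0197), a call lost when CTL replicate 1 or 3 or IDH1mut replicate 1 was left out (adjusted p up to 0.081) and in the unmoderated test. Ggt5, which cleaves extracellular glutathione conjugates, rose by 0.92 ± 0.13 (adjusted p = 0.000758), and Chac1, which degrades glutathione inside the cell, rose by 0.84 ± 0.12 (adjusted p = 0.000626).

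Nnt, the mitochondrial transhydrogenase that makes NADPH from NADH, was the changed gene of the wider list in IDH1wt against CTL. It read 8.75, 8.65 and 9.11 on the IDH1mut arrays, 8.79, 8.69 and 8.74 on the IDH1wt arrays and 9.76, 9.73 and 9.95 on the CTL arrays. All 6 arrays with an IDH1 vector lay below CTL, as for Keap1, Gpx3, Gpx7, Gstt2 and, narrowly, Txn2 among the members that passed. Nnt fell 1.97-fold in IDH1mut (-0.98 ± 0.12; adjusted p = 0.000336) and 2.10-fold in IDH1wt (-1.07 ± 0.12; adjusted p = 0.00131), and both calls held without each array in turn.

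In IDH1mut against IDH1wt the largest changes of the wider list were rises. Ggt5 rose by 1.03 ± 0.13 (adjusted p = 0.000782), Chac1 by 0.74 ± 0.12 (adjusted p = 0.00245) and Chac2, its paralogue, by 0.62 ± 0.15 (adjusted p = 0.0184). The call of Chac2 was lost in the unmoderated test (adjusted p = 0.0806) and without IDH1wt replicate 3, IDH1mut replicate 1 or IDH1mut replicate 2 (adjusted p up to 0.0699). Mafg, a small MAF partner of NRF2, rose by 0.59 ± 0.10 (adjusted p = 0.00412). Msrb1 and Msra, which repair oxidised methionine, rose by 0.59 ± 0.11 (adjusted p = 0.00461) and 0.53 ± 0.09 (adjusted p = 0.00375).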

How the data were processed

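Sorted marrow cells of 3 groups (IDH1mut, IDH1wt and CTL, grouped by the sample titles) were measured on 9 arrays. The values the authors deposited are log2 expression values per probe set, 20877 per array, with array medians from 4.65 to 4.72. RMA is the step named in the submitters' processing notes. Its version, and how the array was reduced to about 1 probe set per gene, are not given in the sources used here. With a platform annotation of 2016, 17815 probe sets had 1 symbol, 244 several and 2818 none, and probe sets with several or none were not tested. Where a gene had more than 1 probe set, that of highest average log2 value was used, which left 17731 genes.

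Group means over the 9 arrays were estimated in a single linear model (limma 3.58.1, R 4.3.3), with moderated two-sided tests and Benjamini-Hochberg adjustment over all genes, threshold 0.05. The procedure was tested on simulated data. No array duplicated another (correlations 0.982 to 0.997), and 3 arrays a group limit the precision. Same-numbered arrays did not deviate together (correlations of deviations -0.09 to 0.03), so numbers were not treated as pairs. The members, the wider list and the marker lists were chosen with earlier results of these data known. Values per array are given for members that passed in at least 1 comparison, and for Hmox1, Prdx2, Prdx4 and Nnt, chosen after their values were seen. Alternatives were the mean of probe sets, genes above the median brightness, repeated quantile normalisation, centring, the 6 arrays compared, a trend with robust variances, array weights, a replicate block, an unmoderated test, and each array left out. For the wider list and the markers they were added after seeing the data.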

Additional observations from a re-analysis of the deposited data

How the results depend on the processing

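The 21 calls of members kept their direction under the 9 alternative settings and without each of the 9 arrays, and 13 of them kept their call in all of these that tested the gene. The count of changed members in IDH1mut against CTL was 12, with 10 to 15 under the other settings and 8 to 13 without single arrays. In IDH1wt against CTL it was 3, with 1 in the unmoderated test and 1 to 3 without single arrays. In IDH1mut against IDH1wt it was 6, with 11 among genes above the median brightness, 10 where the variances followed a trend with intensity and were made robust, and 4 to 7 without single arrays. Over all genes 2363 changed in that comparison, with 2827 among the brighter genes and 2821 with the trend and robust variances. With the replicate number as a block (replicate block) the counts of members were 11, 3 and 6, and the call of Txn2 (adjusted p = 0.0548) was lost, the single member call that the block removed. For the wider pathway list the count in IDH1wt against CTL was 1, with 2 among the brighter genes, 3 with trend and robust variances, 5 with array weights and 1 to 2 without single arrays. In IDH1mut against IDH1wt it was 21, with 13 on the 6 arrays compared and 10 to 21 without single arrays. In IDH1mut against CTL it was 29, with 27 to 35 under the other settings and 23 to 29 without single arrays. Erythroid genes changed in IDH1mut against CTL numbered 18, with 11 under trend and robust variances and 8 in the unmoderated test. Among the brighter genes and in the fit on 6 arrays fewer genes or arrays enter; the cause of the other shifts was not tested. Probe sets near the lower end of the scale (Gpx7, Gsta3 and Mgst3 among the members) have compressed folds.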
